A study of Homo sapiens with 6 samples.

Results

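Integrin subunits were described in A375 cells, a human melanoma cell line, with and without a stable knockdown of the kinase gene MAP4K5. The members were the 10 genes ITGA2, ITGA3, ITGA4, ITGA5, ITGA6, ITGA9, ITGAV, ITGB1, ITGB3 and ITGB5, out of 18132 genes with at least 1 probe set of their own on the array. Every probe set annotated to exactly 1 of these symbols was taken, which gave 38 of the 44988 probe sets with a single symbol. These genes were picked from the integrin family with the differences between the knockdown and control arrays already known. Their differences from control are therefore given as a description, and a member's adjusted p states only how it ranked in the fit over all genes.

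Of the 6 arrays, 3 measured A375 cells carrying a short hairpin RNA against MAP4K5 (knockdown) and 3 measured A375 cells without it (control). Both groups were untreated cells of the same line, grown in the same serum-supplemented medium, and all 6 are labelled as biological replicates. The labels name no vector for the control cells and do not say whether the knockdown line was 1 clone or how the cultures were separated. The p-values thus cover the spread among the 6 arrays, which may be technical. Effects of the hairpin other than loss of MAP4K5 cannot be told apart from that loss.

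Integrins are cell surface receptors made of 1 alpha and 1 beta subunit, which hold cells to the extracellular matrix and signal through focal adhesions. The pairing sets the ligand. The products of ITGA2, ITGA3, ITGA4, ITGA5, ITGA6 and ITGA9 pair with the beta subunit of ITGB1, and bind collagens, laminins, fibronectin, tenascin or vascular adhesion molecules. The product of ITGAV pairs with several beta subunits, those of ITGB3 and ITGB5 among them, to form receptors for vitronectin and other ligands with an RGD motif. In melanoma, ITGB3 is known for its link to the switch from radial to vertical growth.

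Levels are RMA intensities on a linear scale. The median probe set lay at 4.88 and the median gene at 8.68, and RMA compresses differences near this low end. MAP4K5 stood at 19.7, 18.8 and 20.3 in knockdown cells, against 77.7, 78.1 and 76.3 in control cells, at the brightest of its 3 probe sets (log2 difference -1.98 ± 0.08 SE, limma adjusted p = 2.9e-05). By an exact two-sided permutation test each of the 3 gave p = 0.1, which is the floor for groups of 3 arrays. Array medians lay between 4.85 and 4.94. Control replicate 2 stood apart from the other controls: along the main axis of variation between arrays (63.9% of the variance) knockdown arrays scored 17.9 to 21.0, control replicate 2 scored -0.32, and control replicates 1 and 3 scored -29.9 and -28.2. Over all genes 671 rose and 749 fell, and without control replicate 2 the count called was 3732 in place of 1420. Of 9 measured markers of the melanocytic lineage, 4 lay above the median gene (MITF, SOX10, S100B and PAX3), while the pigment genes PMEL, MLANA, TYR and TYRP1 lay below it. The summed level of these 9 markers was 207 to 220.1 in knockdown cells and 211.1 to 223.8 in control cells, but single markers differed in opposite directions. MITF measured 121.7, 115.7 and 117.8 in knockdown cells, against 50.6, 79.4 and 52.8 in control cells. S100B measured 26.9, 24.7 and 29.7 in knockdown cells, against 66.2, 55.2 and 82.0 in control cells, and SOX10 23.7, 22.1 and 22.9 in knockdown cells, against 34.5, 28.3 and 37.7 in control cells. Among the 6 mesenchymal markers 4 lay above the median gene, with a summed level of 4437 to 4653 in knockdown cells and 4618 to 4813 in control cells. Of the leukocyte and endothelial markers, 0 of 4 and 0 of 4 lay above the median gene. Of the 6 epithelial markers only KRT8 and KRT18 did. The summed level of all 6 was 1891 to 2195 in knockdown cells against 1190 to 1339 in control cells. Most of that sum was KRT18, at 2153, 2007 and 1855 in knockdown cells, against 1165, 1300 and 1255 in control cells. KRT8 overlapped between groups, at 29.2, 26.2 and 23.5 in knockdown cells, against 13.9, 26.2 and 15.4 in control cells. The part of these markers in the results below was not tested. In RNA from a whole culture, fewer cells with a transcript and less transcript per cell cannot be told apart.

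The promoters of 3 subunits are shown because these genes differed most clearly among members for which RefSeq gave a sequence: ITGA2, the collagen receptor subunit that was higher in knockdown cells, and ITGA4 and ITGAV, which were lower. RefSeq (GRCh38.p14) gave a start site for 7 of the 10 members. Each sequence is the 250 bases before the start farthest upstream, 5′ to 3′ on the strand of the gene. Capitals mark matches to any of the motifs searched on both strands: the AP-1 site TGANTCA, the cAMP response element TGACGTCA, the GC box GGGCGG, the E-box CACGTG, the ETS core CCGGAAG and the TATA box TATAAA. Overlapping matches were counted separately.
ITGA2, chr5:52989102-52989351, plus strand: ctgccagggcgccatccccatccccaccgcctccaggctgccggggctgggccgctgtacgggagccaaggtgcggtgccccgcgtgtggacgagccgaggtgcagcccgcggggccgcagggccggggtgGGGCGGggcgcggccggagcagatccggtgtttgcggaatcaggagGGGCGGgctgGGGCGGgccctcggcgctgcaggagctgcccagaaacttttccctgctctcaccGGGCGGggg
ITGA4, chr2:181457136-181457385, plus strand: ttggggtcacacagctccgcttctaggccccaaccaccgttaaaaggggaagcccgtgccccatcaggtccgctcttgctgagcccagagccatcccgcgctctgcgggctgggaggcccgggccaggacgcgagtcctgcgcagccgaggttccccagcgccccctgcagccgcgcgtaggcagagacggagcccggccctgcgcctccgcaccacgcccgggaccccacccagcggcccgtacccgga
ITGAV, chr2:186589806-186590055, plus strand: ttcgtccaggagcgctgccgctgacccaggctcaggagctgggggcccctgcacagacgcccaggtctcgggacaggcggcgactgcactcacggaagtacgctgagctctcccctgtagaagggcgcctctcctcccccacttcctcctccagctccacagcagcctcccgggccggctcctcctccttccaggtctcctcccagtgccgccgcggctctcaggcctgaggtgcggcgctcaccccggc

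The ITGA2 window held 4 GC boxes, and the ITGA4 and ITGAV windows held 0 matches to any of the 6 motifs. A GC box was present in 42.6% of 35116 windows of this length over all genes. These took every start entry of 27305 genes, not only the start farthest upstream. Among the other members, ITGB1 had 3 GC boxes, ITGB5 had 2 GC boxes and 1 ETS core, ITGA5 had 1 GC box, and ITGA6 had 1 E-box and 1 TATA box. No AP-1 site, which 6.57% of all windows held, and no cAMP response element, which 1.65% held, was found in any of the 7 windows. The G and C content was 76.4% for ITGA2, 72.8% for ITGA4 and 70.8% for ITGAV. A match is a run of letters, and none of these windows was measured on the arrays.

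Among the 10 subunits, ITGA2 was higher in knockdown cells, and ITGA4, ITGA9, ITGAV and ITGB3 were lower. ITGA3, ITGA5, ITGA6, ITGB1 and ITGB5 did not pass the limma test. The 5 of 10 called stand beside 7.83% of all 18132 genes called in either direction, 3.7% called higher and 4.13% called lower. The groups of arrays did not overlap in 6 of the 10 genes, 1 higher and 5 lower, beside 28.1% of all genes. Since the members were chosen with this contrast known, nothing is read from these shares. The median log2 difference was -0.15 over the 10 subunits and 0.01 over all genes. Each gene is represented below by its probe set with the highest mean, unless another is named.

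**Figure D1:**
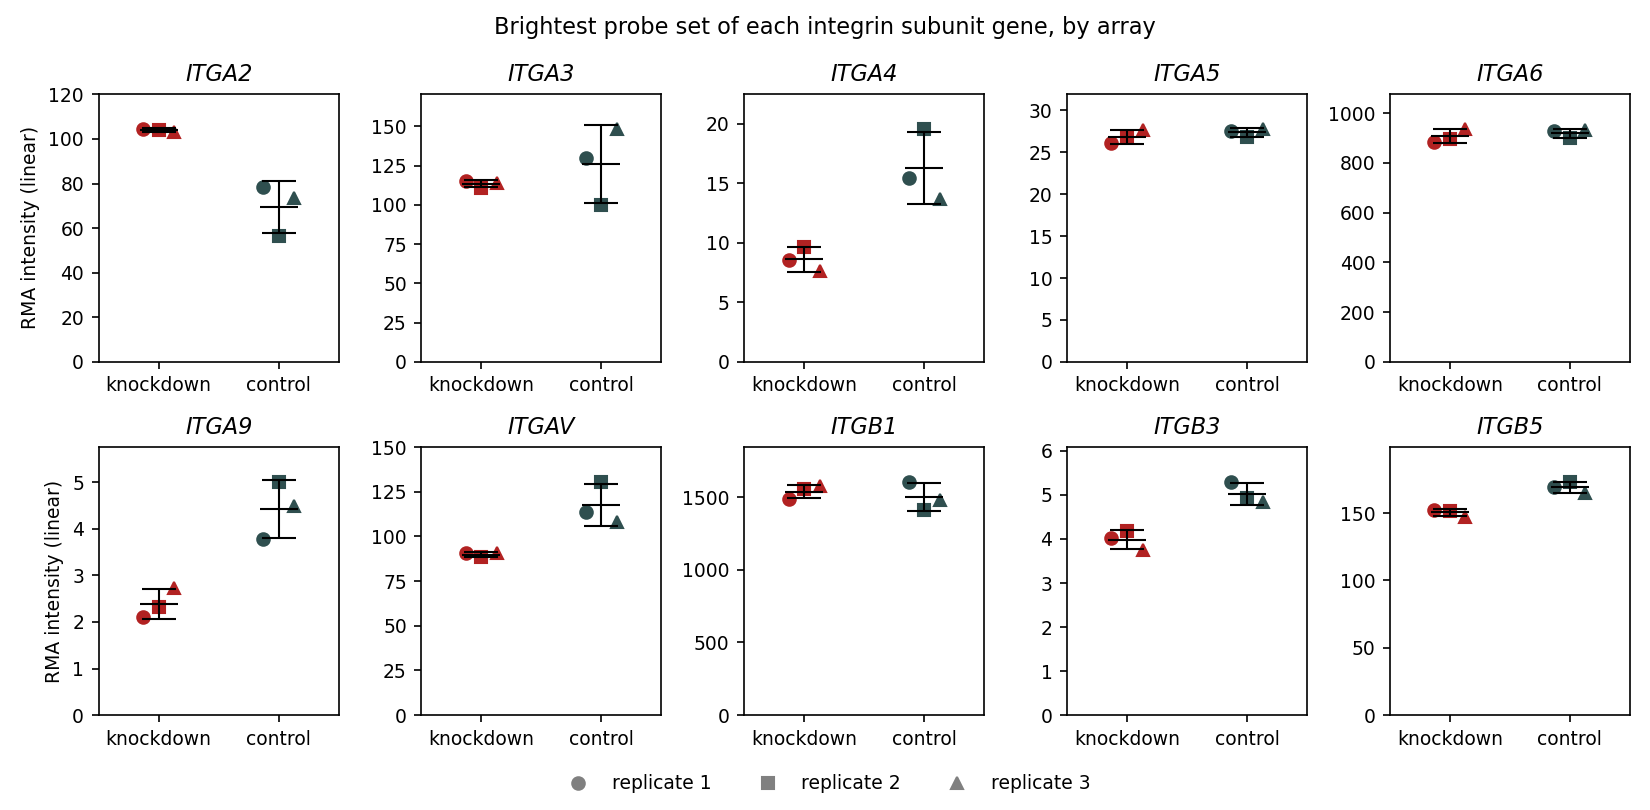
RMA intensity (linear, axes from 0) of the brightest probe set of each integrin subunit gene in the 3 knockdown arrays (left, red) and the 3 control arrays (right, dark), with replicates by symbol. Horizontal bars give the mean and whiskers the SD. Knockdown and control arrays are separate for ITGA2, ITGA4, ITGA9, ITGAV, ITGB3 and ITGB5 and overlap for ITGA3, ITGA5, ITGA6 and ITGB1.

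ITGA2 encodes the alpha subunit of the main collagen receptor of many adherent cells. Its level was 104.7, 103.9 and 103.3 in knockdown cells, against 78.3, 56.3 and 73.6 in control cells. All knockdown arrays lay above all control arrays, and the control arrays spread more widely, with control replicate 2 the lowest. The means were 104.0 ± 0.73 in knockdown and 69.4 ± 11.6 in control cells (SD, n = 3 each), a log2 difference of 0.60 ± 0.12 (SE, limma adjusted p = 0.0278), or 151.3% of control. The second probe set of ITGA2 measured 34.1, 33.6 and 32.3 in knockdown cells, against 24.3, 23.6 and 21.7 in control cells. There the control arrays lay close together, and the log2 difference was 0.52 ± 0.09. Both ITGA2 probe sets were called in the limma fit over all 49293 probe sets, at adjusted p from 0.0159 upwards.

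ITGA4 and ITGA9 encode closely related alpha subunits that bind vascular adhesion molecules and tenascin. ITGA4 measured 8.56, 9.65 and 7.60 in knockdown cells, against 15.5, 19.6 and 13.7 in control cells. The groups were apart, and the mean fell to 8.60 ± 1.02 in knockdown cells, against 16.3 ± 3.02 in control cells (SD, n = 3 each). The log2 difference was -0.91 ± 0.15 (SE, limma adjusted p = 0.0103), which left 53.3% of the control level. Of the 5 probe sets of ITGA4, 3 were called lower, at log2 differences of -0.91, -0.85 and -0.83. Their mean intensities were 11.7, 4.94 and 4.98 in that order, beside 4.88 for the median probe set. The remaining ITGA4 probe sets, at mean intensities near 3, had differences of -0.31 and -0.16 and were not called.

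ITGA9 lay near the lower end of the array scale. Its level was 2.11, 2.33 and 2.73 in knockdown cells, against 3.77, 5.01 and 4.50 in control cells. The groups did not overlap, and the log2 difference was -0.89 ± 0.13 (SE, limma adjusted p = 0.00832). All 3 probe sets of ITGA9 had mean intensities between 2.91 and 3.23, below the median probe set, and they did not move alike. The second was 2.99, 2.67 and 2.96 in knockdown cells, against 3.18, 3.99 and 3.77 in control cells (-0.34 ± 0.11, not called), and the third differed by 0.15 ± 0.12. The ITGA9 reading thus rests on 1 dim probe set.

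ITGAV, the alpha subunit of the vitronectin receptors, was brighter. It measured 90.5, 88.4 and 90.7 in knockdown cells, against 113.5, 130.6 and 108.0 in control cells. Every knockdown array lay below every control array, and the mean was 89.8 ± 1.26 in knockdown cells and 117.4 ± 11.8 in control cells (SD, n = 3 each). The log2 difference was -0.38 ± 0.09 (SE, limma adjusted p = 0.0447), or 76.8% of control. Its probe set ends in _s_at, a suffix for probes that can match several transcripts. The other 4 probe sets of ITGAV were dim, with differences from -0.51 to 0.06, and in the fit over all probe sets none of the 5 was called (smallest limma adjusted p = 0.0641).

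ITGB5 and ITGB3, which encode beta partners of ITGAV, also read lower in every knockdown array than in every control array. ITGB5, read by a single probe set, measured 152.5, 151.7 and 147.4 in knockdown cells, against 169.5, 173.3 and 165.2 in control cells. The groups of ITGB5 did not overlap, but the difference was small, at -0.17 ± 0.08 (SE), with a 95% interval of -0.34 to 0.002 and a limma adjusted p of 0.219. ITGB3 measured 4.01, 4.19 and 3.76 in knockdown cells, against 5.30, 4.93 and 4.83 in control cells. Its log2 difference of -0.33 ± 0.08 passed narrowly (limma adjusted p = 0.0499).

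The 7 probe sets of ITGB3 all had mean intensities below the median probe set, from 2.74 to 4.47, and all 7 differences were negative, from -0.68 to -0.0003. The one called probe set of ITGB3 stood at 3.35, 2.92 and 3.36 in knockdown cells, against 4.64, 5.16 and 5.67 in control cells (-0.68 ± 0.11). In 3 of the 7 the groups did not overlap. Those 3 had differences of -0.68, -0.47 and -0.33, and the other 4 lay between -0.23 and -0.0003.

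The common partner ITGB1 and the alpha subunits ITGA3, ITGA5 and ITGA6 had groups that overlapped. ITGB1 measured 1485, 1554 and 1573 in knockdown cells, against 1605, 1414 and 1478 in control cells. Its log2 difference was 0.04 with a 95% interval of -0.15 to 0.23. The 5 probe sets of ITGB1 gave differences from -0.04 to 0.14.

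ITGA6, a laminin receptor subunit, measured 886.2, 897.8 and 938.5 in knockdown cells, against 929.3, 899.0 and 930.8 in control cells. Its difference was -0.02, with an interval of -0.19 to 0.15. ITGA5, the fibronectin receptor subunit, measured 26.05, 26.8 and 27.6 in knockdown cells, against 27.6, 26.8 and 27.8 in control cells, with a difference of -0.03 and an interval of -0.20 to 0.14. At the brightest probe sets of ITGB1, ITGA6 and ITGA5, differences of up to 0.23 in size on the log2 scale were not resolved. Like that of ITGAV, each of these probe sets ends in _s_at. Other probe sets of these genes left wider intervals in the fit over all probe sets. The widest ran from -0.19 to 0.47 for ITGB1, from -0.71 to 0.26 for ITGA6 and from -0.09 to 0.55 for ITGA5.

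ITGA3, another laminin receptor subunit, had the widest interval of the uncalled members. It measured 115.1, 110.9 and 114.3 in knockdown cells, against 129.9, 99.7 and 148.7 in control cells. The knockdown arrays lay inside the range of the controls, where control replicate 2 was the lowest. The difference was -0.13, with an interval of -0.45 to 0.18. Against control replicate 2 alone it was 0.19, and against control replicates 1 and 3 alone -0.20 and -0.39.

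**Figure D2:**
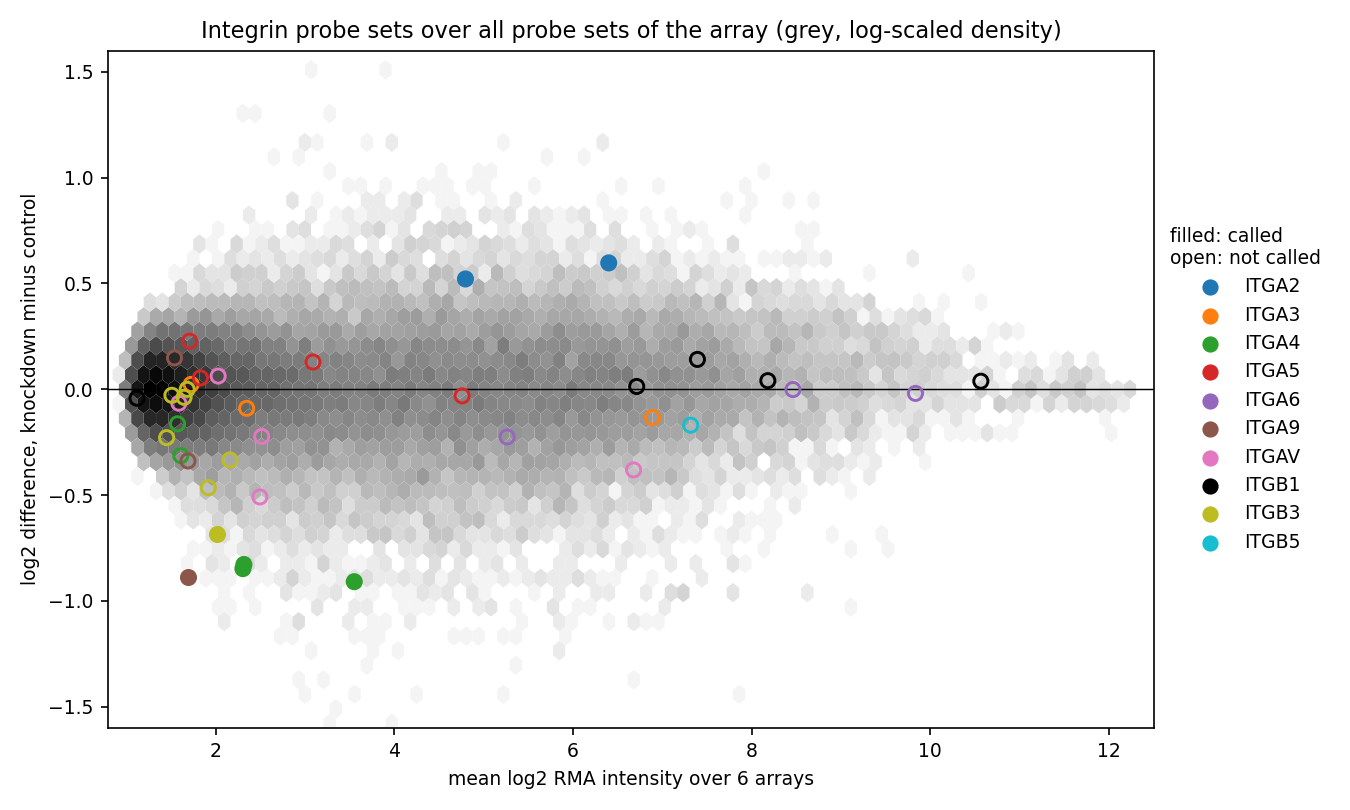
Log2 difference (knockdown minus control) against the mean log2 RMA intensity over 6 arrays for the 38 integrin probe sets (coloured by gene, filled where called by limma) over all 49293 probe sets (grey, darker where more probe sets lie). Both ITGA2 probe sets lie above 0, the called probe sets of ITGA4, ITGA9 and ITGB3 lie below it, and the bright probe sets of ITGB1 and ITGA6 lie close to 0.

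Over all 38 probe sets, 2 were called higher and 5 lower, beside 4.43% of all probe sets called in either direction, 1.98% higher and 2.46% lower. The 2 called higher belong to ITGA2, and the 5 called lower to ITGA4 (3), ITGA9 (1) and ITGB3 (1). Of the 38, 18 lay below the median probe set, 2 of them called lower, and 20 lay above it, 2 called higher and 3 lower. The median log2 difference was -0.05 over the 38 and 0.005 over all probe sets. Among the called probe sets of a gene all had the same direction, while 1 uncalled probe set of ITGA9 had a positive difference beside the called negative one.

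The position of control replicate 2 is given as a count, with no test. Over all 18132 genes, control replicate 2 was the control nearest to the knockdown mean in 45.2% and the farthest in 26.9%, and over the 10 subunits it was the nearest in 3 and the farthest in 6. Among the 1420 genes called, control replicate 2 was the control nearest to the knockdown mean in 940 (66.2%) and the farthest in 242 (17.0%). Among the 5 called subunits it was the farthest in 4 (ITGA2, ITGA4, ITGA9 and ITGAV) and the nearest in 0. These positions are those of the brightest probe set of each gene, and other probe sets did not all share them. In the second ITGA2 probe set control replicate 3 was the farthest (24.3, 23.6 and 21.7 in control cells). Among the dimmer called ITGA4 probe sets, control replicate 1 was the farthest where controls measured 7.70, 6.53 and 5.79. Control replicate 2 was the farthest where they measured 5.72, 8.67 and 5.90. Against control replicate 2 alone, the log2 differences were 0.88 for ITGA2, -1.19 for ITGA4, -1.08 for ITGA9, -0.54 for ITGAV and -0.31 for ITGB3. Against control replicate 1 alone they were 0.41, -0.85, -0.67, -0.34 and -0.41 in the same order of genes, and against control replicate 3 alone 0.50, -0.68, -0.92, -0.27 and -0.28. Since the groups of these 5 genes do not overlap, their direction against each control array is fixed.

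**Figure D3:**
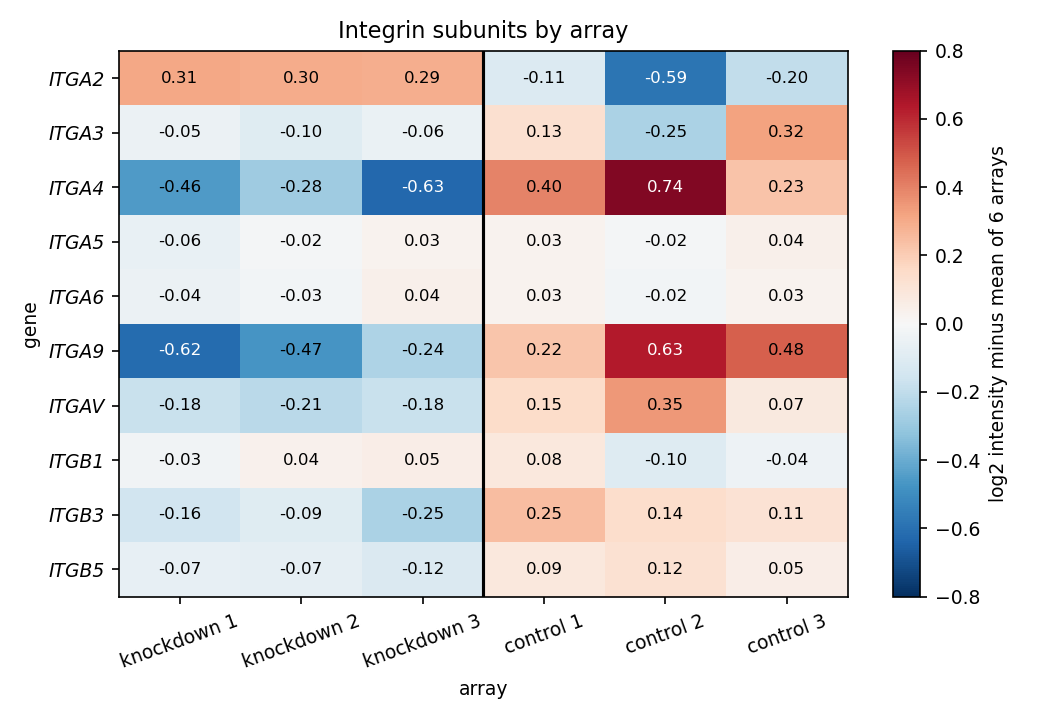
Log2 RMA intensity of the brightest probe set of each integrin subunit in each array, minus the mean over the 6 arrays (red above, blue below, number in each cell). Knockdown arrays are left of the line and control arrays right. Control replicate 2 holds the highest ITGA4 value (0.74) and the lowest ITGA2 value (-0.59), and rows of ITGA5, ITGA6 and ITGB1 stay near 0.

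Without control replicate 2 the same 5 subunits were called, beside 20.6% of all genes. Their log2 differences were then 0.45 (ITGA2), -0.77 (ITGA4), -0.79 (ITGA9), -0.30 (ITGAV) and -0.35 (ITGB3). Leaving out any other single array ended some calls. ITGA9 kept its call in all 6 such fits (-0.999 to -0.794, limma adjusted p from 0.00406 to 0.0498) and ITGA4 in 4. Without knockdown replicate 1, where ITGA9 passed narrowly, the fit over all probe sets called 0 integrin probe sets. ITGA4 lost its call without knockdown replicate 1 (-0.91, limma adjusted p = 0.0606) or 3 (-0.82, adjusted p = 0.0558). ITGA2 lost it without any 1 knockdown array or control replicate 3 (0.59 to 0.65, limma adjusted p from 0.0638 to 0.115). ITGAV (-0.44 to -0.30) and ITGB3 (-0.37 to -0.29) were called only without control replicate 2. Without any 1 knockdown array, 324 to 392 genes were called on the whole array. When all probe sets of a gene were averaged, ITGAV stood at -0.22 (adjusted p = 0.217), ITGB3 at -0.25 (adjusted p = 0.057) and ITGA9 at -0.36, which remained called. With 16 added to each intensity before log2, which shrinks differences of dim genes, ITGA2 lost its call (0.50, limma adjusted p = 0.0522) and so did ITGB3 (-0.07, adjusted p = 0.0768). In that fit ITGB5 was called (-0.15, limma adjusted p = 0.0264), and ITGA4 and ITGA9 stayed called at -0.39 and -0.15.

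The genes most like ITGA2 over the 6 arrays, among 4005 genes at or above the median level whose SD was at least 0.5 times its own, were ZHX3 (Pearson r = 0.998), CD55 (0.995) and CALB1 (0.994). CD55, a complement regulator on the cell surface, measured 375.2, 395.9 and 373.7 in knockdown cells, against 236.4, 126.7 and 227.6 in control cells. Like the brightest probe set of ITGA2 it was lowest in control replicate 2. The genes most like ITGA4, among 1971 genes, were ENAH (0.997), UGP2 (0.989) and TBL1XR1 (0.987). ENAH, an actin regulator of the Ena/VASP family, measured 224.5, 240.0 and 217.8 in knockdown cells, against 330.4, 375.4 and 308.1 in control cells. These correlations run over 6 arrays in 2 groups, and the points share that gap between groups and the place of control replicate 2.

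Of 15 other integrin subunits measured, 1 rose, 0 fell and 14 were not called, beside 7.83% of all genes called, with a median log2 difference of 0.03 beside 0.01 for all genes. ITGAE, whose product pairs with the beta subunit of ITGB7 and binds E-cadherin, measured 268.9, 275.1 and 258.7 in knockdown cells, against 188.6, 202.5 and 188.1 in control cells. The groups were apart, with a log2 difference of 0.47 ± 0.08 (SE, limma adjusted p = 0.0125). Its call was lost without any 1 knockdown array (0.45 to 0.51 over the 6 fits). Its partner ITGB7 lay low, with a difference of -0.55 that was not called (limma adjusted p = 0.0512). ITGB8, which pairs with ITGAV, stood at 0.17 and was not called.

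**Figure D4:**
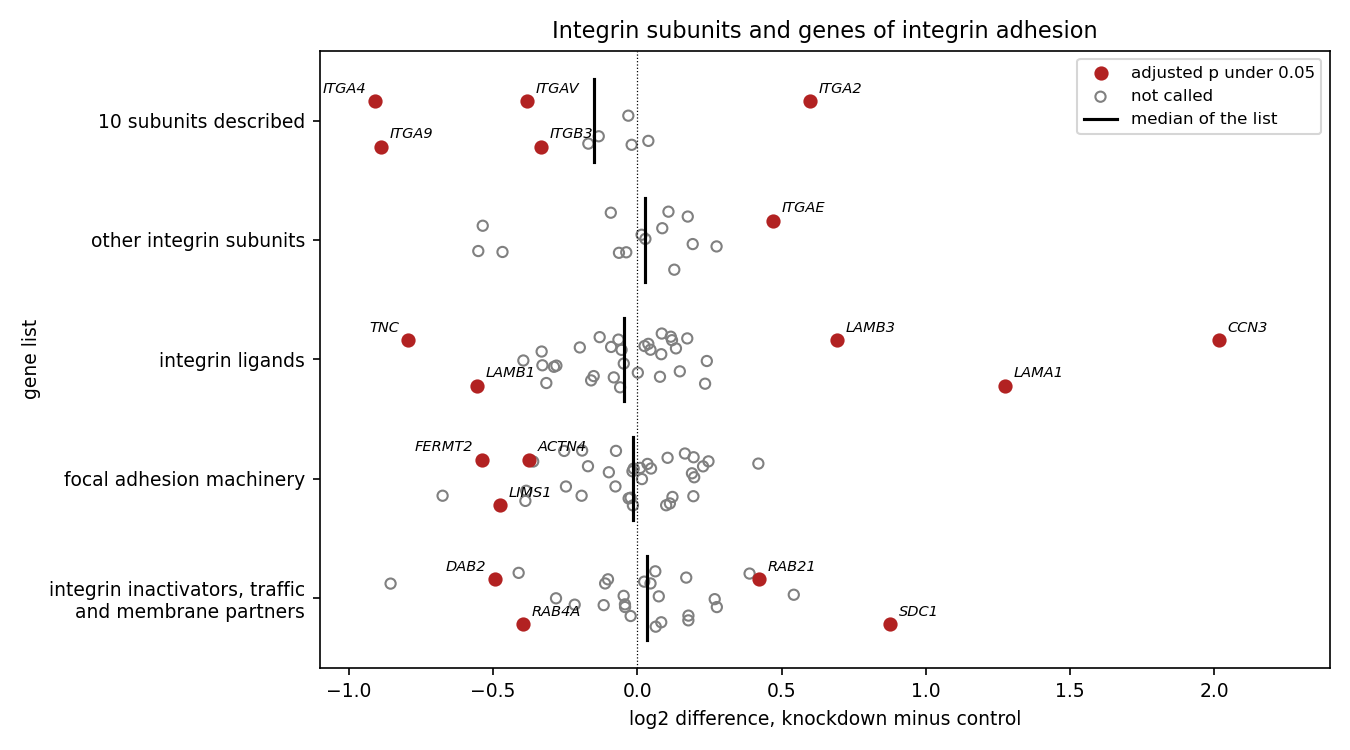
Log2 difference (knockdown minus control) of the 10 integrin subunits and of 4 lists of genes of integrin adhesion, 1 point per gene, red where called by limma and named. Black lines give the median of each list. Called genes lie on both sides of 0 among the ligands, and the 3 called genes of the focal adhesion list all lie below it.

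Of 35 measured integrin ligands, 3 rose, 2 fell and 30 were not called, beside 3.7% of all genes called higher and 4.13% called lower (median log2 difference -0.05, against 0.01 for all genes). TNC, tenascin-C, a ligand of the receptors that hold ITGA9 or ITGAV, measured 146.2, 145.8 and 159.1 in knockdown cells, against 258.7, 230.9 and 296.8 in control cells. It fell by 0.80 ± 0.11 on the log2 scale (SE, limma adjusted p = 0.00538), and all 4 of its probe sets were called lower. CCN3, a matricellular protein that binds integrins, measured 118.9, 117.6 and 107.7 in knockdown cells, against 26.8, 35.1 and 24.3 in control cells, a rise of 2.01 ± 0.14 on the log2 scale.

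Among laminin chains, the ligands of receptors with ITGA3 or ITGA6, LAMA1 and LAMB3 rose and LAMB1 fell. LAMA1 measured 19.6, 23.6 and 23.8 in knockdown cells, against 7.27, 8.55 and 12.4 in control cells (1.28 ± 0.19). LAMB3 measured 13.8, 12.2 and 12.7 in knockdown cells, against 8.77, 7.30 and 7.86 in control cells (0.69 ± 0.10). LAMB1 measured 719.2, 715.7 and 723.1 in knockdown cells, against 1086, 940.9 and 1156 in control cells (-0.56 ± 0.10). TNC, CCN3, LAMA1 and LAMB3 were called in each fit without 1 array, and LAMB1 only without control replicate 2 or 3 (-0.64 to -0.49). The fibronectin gene FN1 differed by 0.08 and was not called.

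Of 36 measured focal adhesion genes, 0 rose, 3 fell and 33 were not called, a share near the 7.83% of all genes called (median log2 difference -0.02). FERMT2, kindlin-2, which binds beta subunit tails and helps to activate integrins, measured 77.2, 76.0 and 79.7 in knockdown cells, against 111.8, 116.6 and 110.0 in control cells. It fell by 0.54 ± 0.08 on the log2 scale (SE, limma adjusted p = 0.00652) and was called in each fit without 1 array. Of its 4 probe sets 1 was called. Once _x_at and _s_at probe sets were dropped, the FERMT2 difference was -0.38 (limma adjusted p = 0.0492). LIMS1, an adaptor of integrin-linked kinase, fell by 0.47 ± 0.11, and ACTN4, an actin crosslinker of adhesions, fell by 0.37 ± 0.08. Both LIMS1 (-0.57 to -0.39) and ACTN4 (-0.43 to -0.33) were called only without control replicate 2 among the fits without 1 array. Talin (TLN1, -0.02) and focal adhesion kinase (PTK2, -0.08) were not called.

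Of 28 measured genes for integrin inactivation, traffic and membrane partners, 2 rose, 2 fell and 24 were not called, beside 7.83% of all genes called (median log2 difference 0.03). SDC1, syndecan-1, a matrix co-receptor, measured 215.6, 207.8 and 209.9 in knockdown cells, against 94.8, 139.4 and 115.0 in control cells (0.88 ± 0.13, limma adjusted p = 0.00871). It lost its call only without knockdown replicate 1, with differences of 0.737 to 1.015 over the 6 fits. All SDC1 probe sets end in _x_at or _s_at, so it has no value once such probe sets are dropped. RAB21, a small GTPase of integrin uptake, rose by 0.42 ± 0.09. RAB4A, a GTPase of receptor recycling, fell by 0.40 ± 0.10, and DAB2, a clathrin adaptor for integrins, fell by 0.49 ± 0.12. These last 3 were called only without control replicate 2 among the fits without 1 array, and DAB2 had a difference of -0.28 that was not called once _x_at and _s_at probe sets were dropped. In the fit over all probe sets, ACTN4, RAB4A and DAB2 had 0 probe sets called. Without control replicate 2, where 20.6% of all genes were called, the other subunits gave 1 higher and 3 lower, the ligands 3 and 6, the focal adhesion genes 2 and 7, and the inactivation, traffic and partner genes 5 and 4.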

How the data were processed

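The authors deposited 1 intensity per probe set and array, made with RMA according to the submitters' processing notes, on a linear scale (1.55 to 6658, read from the values). Per the labels' protocols, biotin-labelled cRNA was made from 250 ng of Trizol-extracted total RNA. The sources used here give no RMA version, annotation build or scan batch. No detection calls were used, and precision is limited by the number of arrays.

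Of 49293 probe sets, 44988 had 1 gene symbol in the platform annotation, 1832 several and 2473 none. Each of 18132 genes was represented by its probe set with the highest mean. Log2 intensities, without a pseudocount or filter, were fitted with limma 3.58.1 (R 4.3.3, lmFit and eBayes) over all genes, and separately over all probe sets, with Benjamini-Hochberg adjustment and a threshold of 0.05. Log2 differences are knockdown minus control, and intervals are 95%. Both fits were run on simulated arrays with 200 changed rows and independent noise. Of changes of log2 size 1 the gene fit recovered 85% and the probe set fit 78%, with 5.236% and 3.825% false among the rows called. Smaller changes, such as those of the called subunits, were not simulated, so their recovery is not known. The simulated arrays held no shift of a whole control array, so they cannot show how control replicate 2 moves the calls.

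The members, lists, tests and alternatives were chosen with earlier results of these data known. Of each list, up to 3 called genes in each direction were to be named. FN1, TLN1, PTK2, ITGB7 and ITGB8 were named after their values were seen. The genes most like a member were taken for the largest rise (ITGA2) and the largest fall (ITGA4). Some genes of these lists were not analysed here. Replicate numbers shared by the groups were not used to pair the arrays in the main fit. Tables were made with Python 3.11.15 and pandas 2.3.3, the figures with matplotlib 3.10.9.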

Additional observations from a re-analysis of the deposited data

How the results depend on the processing

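Leaving out 1 array in turn gave 324 to 3732 called genes, 0 to 1 subunits higher, 1 to 4 lower, and 0 to 8 called integrin probe sets. The called counts ran from 0 to 4 for the other subunits, 4 to 9 for ligands, 1 to 9 for focal adhesion genes and 0 to 9 for inactivation, traffic and partner genes, and MAP4K5 from -2.01 to -1.95. Array weights called 3103 genes, 4 other subunits, 8 ligands, 6 focal adhesion genes and 9 partner genes. With the replicate number as a block, 2 subunits stayed lower (ITGAV and ITGB3 were lost), 2 other subunits and 1 focal adhesion gene were called. ITGB3 also lost its call in a limma fit with an intensity trend (adjusted p = 0.0669). The same held without _x_at or _s_at probe sets (limma adjusted p = 0.0607), both at an unchanged difference of -0.33. Same-numbered arrays had correlations of deviations of -0.079, 0.022 and 0.060, beside -0.083 to 0.062 for arrays with different numbers. These values cannot settle whether same-numbered arrays shared a culture or a processing day, which the labels do not say. With 16 added before log2, 0 subunits were higher (ITGA2 at 0.50, limma adjusted p = 0.0522), ITGB3 was lost (-0.07) and ITGB5 gained (-0.15), so that the count of lower subunits hid an exchange. ITGA9 and ITGA4 shrank to -0.15 and -0.39, and 3 integrin probe sets were called. The count of lower subunits was 2 with the lowest 50% of genes left out, where ITGA9 and ITGB3 were not tested, 2 with mean probe sets and 2 without _x_at or _s_at probe sets, where 2 partner genes were called. Other subunits called numbered 2 after repeated quantile normalization and 2 with the lowest 25% of genes left out, and focal adhesion genes 1 with mean probe sets. ITGA5 turned to 0.0948 with mean probe sets and to 0.0539 without _x_at or _s_at probe sets. ITGB1 turned to -0.0288 after repeated quantile normalization, and ran from -0.003 to 0.0888 over the fits without 1 array. None of these reversed values was called, and the causes of the changes were not tested. ITGA9, ITGB3 and the dimmer probe sets of ITGA4 and ITGAV lie where RMA compresses differences.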
